A study of Homo sapiens with 12 samples.

Results

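The response of parental BT474 cells to neratinib was described across all named genes of a bulk RNA sequencing count table. BT474 is an established human breast cancer line that is hormone receptor-positive and carries an amplified ERBB2 gene. Neratinib binds covalently to the kinase domains of ErbB receptors, among them HER2, the product of ERBB2. DMSO is its solvent. The comparison took its members by label: 3 libraries of parental cells given 200 nM neratinib for 4 h against 3 libraries of parental cells in DMSO, 6 of the 12 libraries of the series. The other 6 were cells labelled BRD8 KO, in DMSO or in the same neratinib treatment, and entered the fit and a later comparison of responses. Parental cells are the unedited line and received no agent other than neratinib or DMSO, per the labels. All groups were grown in RPMI medium with fetal bovine serum, and the results stand for a single line at a single dose and time. The labels do not say whether replicates were separate cultures, so the p-values reflect only how far these samples spread, possibly for technical reasons alone.

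HER2 pairs with HER3 (the ERBB3 product) and passes its signal along a pair of routes. The RAS-RAF-MEK-ERK route switches on a set of genes that includes its own brakes, the dual-specificity phosphatases and Sprouty proteins, together with the cyclin D1 gene. The PI3K-AKT-mTOR route promotes growth and protein synthesis and holds FOXO transcription factors out of the nucleus, where they would otherwise raise insulin receptor pathway genes, cell-cycle brakes and genes of catabolism. BT474 cells depend on HER2 signalling for growth.

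The 6 parental libraries each held between 32471198 and 44462918 counts on named genes. Of 27814 named genes, 16208 had enough counts to be tested. Luminal epithelial markers summed to 8970 to 9060 CPM (a share of the library's counts, with library sizes scaled by edgeR's TMM factors) in DMSO and to 4920 to 4970 CPM in neratinib, with 6 of the 8 called down and 2 called up. Of other cell types, fibroblast markers summed to 70.2 to 76.3 CPM in DMSO and 89.2 to 92.6 CPM in neratinib, nearly all of it COL1A1, with LUM, PDGFRB and THY1 at 0 counts. Blood and immune markers summed to 3.93 to 4.56 CPM and 6.91 to 8.25 CPM, mostly CD68, with CD3D, CD3E and CD2 at 0 counts. Endothelial markers (12.3 to 12.5 CPM, then 14.5 to 15.4 CPM) were nearly all VWF, and basal markers summed to 15.6 to 16.5 CPM and 14.7 to 16.5 CPM. Mitochondrially encoded genes took up 2.97% ± 0.163 of the DMSO counts and 4.51% ± 0.372 of the neratinib counts, and ribosomal protein genes 6.38% ± 0.0434 and 7.48% ± 0.0382 (SD, n = 3 each). Both shares were higher in the neratinib libraries, and their part in the results was not tested. Of 14 genes that identify this carcinoma line (receptors, keratins and ERBB2 neighbours), 5 were called up and 7 down, and all but TFAP2B stood above 1 CPM in DMSO.

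The neratinib response was broad, with rises outnumbering falls at the larger sizes. With a size of 2-fold or more, 2111 genes were called up (13.0% of those tested) and 1261 down (7.78%), by edgeR's quasi-likelihood test and a Benjamini-Hochberg adjusted p below 0.05. At 4-fold or more, 562 genes were up and 174 down, and at 8-fold or more 151 and 26. Replicates differed little, with a common biological coefficient of variation of 1.86%, so changes of any size were called for 6778 genes up (41.8%) and 6299 down (38.9%). These last 2 shares are the background for every count of list members below, and the median log2 fold change of all genes tested was 0.039. When called genes had to exceed a 1.5-fold change by edgeR's glmTreat, 2800 were up and 2273 down. "Rose" and "fell" below mean called at an adjusted p below 0.05, whatever the size.

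The share of 2-fold rises was highest among weakly expressed genes. In the quartile of tested genes with the lowest parental level (up to 2.35 CPM), 29.8% were called up and 9.95% down at least 2-fold. The shares were 13.2% and 9.11% in the next quartile, 5.11% and 6.37% in the next (from 18.9 CPM), and 4% and 5.7% in the highest (from 57 CPM). Among the 9800 genes with a parental mean of at least 10 CPM, falls outnumbered rises, at 627 against 529. The same tested genes served parental and KO-labelled cells, and the lowest parental level among them was 0.00364 CPM. With the parental libraries only, 1883 genes were called up and 1204 down at least 2-fold, against 2111 and 1261 in the main fit. How far the filter on low counts shaped the shares by quartile was not tested. Long noncoding RNA genes made up 16.7% of the 2-fold rises, 4.9% of the falls and 7.29% of all genes tested. The polyadenylated libraries were counted without a stated strand setting, so reads of an antisense RNA and of its partner cannot be told apart.

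**Figure D1:**
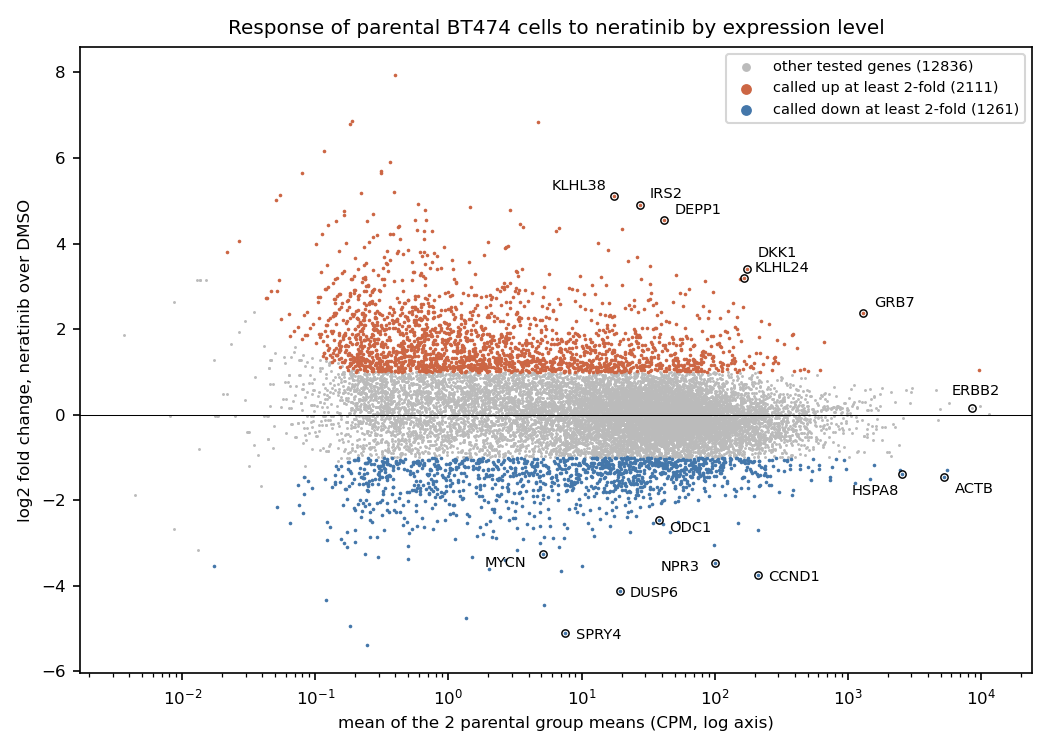
Each point is 1 tested gene; the horizontal axis is the mean of the parental DMSO and neratinib levels (CPM, log axis) and the vertical axis the log2 fold change of neratinib over DMSO. Orange points are the 2111 genes called up at least 2-fold and blue points the 1261 called down; circled genes are named in the text, and most of the largest rises lie at low levels.

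The list of FOXO targets and partners, which includes FOXO factor genes, had the largest share of rises of the 37 lists. All lists were chosen with earlier results of these data known, so this rank is a description. Some FOXO list members, such as IRS2, ERBB3 and RBL2, also belong to other lists below. Of 41 members tested, 36 rose (87.8%) and 4 fell (9.76%), 24 rose at least 2-fold, and the median log2 fold change was 1.17. IRS2, which carries signals from the insulin and IGF1 receptors, stood at 1.71, 1.96 and 1.58 CPM in the DMSO libraries and at 51.5, 52.3 and 54.6 CPM in the neratinib libraries. The groups were far apart, a 30.1-fold difference (log2 fold change 4.91, SE 0.064, edgeR quasi-likelihood adjusted p = 3.04e-44). DEPP1, a FOXO target named for its induction by fasting and progesterone, went from 3.07, 3.81 and 3.33 CPM to 80.5, 79.0 and 79.5 CPM (log2 fold change 4.55, SE 0.052).

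A FOXO recognition core, GTAAACA or its reverse complement TGTTTAC, was looked for on both strands from 250 bases before to 50 bases after each RefSeq gene start (GRCh38.p14). It occurred in 4.97% of the 1568 windows of genes called up at least 2-fold, 1.09% of the 917 windows of genes called down, 2.45% of the 12305 windows of all genes tested and 3.41% of all 27305 windows in the table. Of 34 FOXO list members with a window, 6 held it (17.6%): DEPP1, SELENOP, YPEL3, FOXO4, TXNIP and TRIB2, of which TRIB2 fell. The windows of the 3 of these 6 with the largest rises are shown because they place the core beside measured responses. IRS2, with the largest rise of the list, was not among the 6. The core is in capitals and the sequence is cut to 250 bases before and 30 after the start, all on the minus strand. DEPP1 is at chr10:44978780-44979059, SELENOP at chr5:42811863-42812142 and YPEL3 at chr16:30096184-30096463.
DEPP1: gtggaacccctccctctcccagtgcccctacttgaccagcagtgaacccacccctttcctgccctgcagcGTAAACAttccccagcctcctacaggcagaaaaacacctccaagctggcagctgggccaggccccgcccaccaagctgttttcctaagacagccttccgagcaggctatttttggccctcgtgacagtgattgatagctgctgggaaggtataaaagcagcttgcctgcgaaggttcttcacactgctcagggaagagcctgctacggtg
SELENOP: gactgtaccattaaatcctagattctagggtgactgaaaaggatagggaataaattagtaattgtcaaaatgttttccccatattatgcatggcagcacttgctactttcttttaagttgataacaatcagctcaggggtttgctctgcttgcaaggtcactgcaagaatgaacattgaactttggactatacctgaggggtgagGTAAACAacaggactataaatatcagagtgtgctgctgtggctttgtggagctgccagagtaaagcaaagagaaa
YPEL3: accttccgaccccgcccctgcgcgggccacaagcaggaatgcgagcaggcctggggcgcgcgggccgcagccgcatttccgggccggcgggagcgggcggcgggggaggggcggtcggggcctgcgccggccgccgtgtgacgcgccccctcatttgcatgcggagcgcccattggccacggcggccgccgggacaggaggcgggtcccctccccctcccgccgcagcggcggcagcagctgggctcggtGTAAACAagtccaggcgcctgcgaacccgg
The core began 180 bases upstream of the start in DEPP1, 45 bases upstream in SELENOP and at the start itself in YPEL3. A match is a description of letters and does not show that a factor bound there. For 5 other motifs searched in the same windows, the shares among 2-fold rises, 2-fold falls and all genes tested were 8.35%, 11.1% and 9.78% for the E-box CACGTG, and 7.27%, 5.34% and 4.8% for the AP-1 motif TGANTCA. They were 2.49%, 2.29% and 3.07% for the cyclic AMP element TGACGTCA, 4.15%, 2.94% and 7.93% for the ETS motif CCGGAAGT, and 2.1%, 2.51% and 2.51% for the E2F motif TTTCCCGC. The AP-1 share, like the FOXO share, was thus higher among the rises than among all genes tested. For AP-1 it was higher among the falls too. The sets also differed in level, with median parental CPM of 1.51 for the rises, 9.68 for the falls and 18.9 for all genes tested. The shares of all windows in the table were 7.43%, 7.76%, 1.98%, 4.44% and 1.66% in the same order.

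SELENOP, which encodes a secreted selenium carrier, was at 22.6, 23.7 and 23.2 CPM in DMSO, against 173, 170 and 167 CPM in neratinib, and YPEL3, a growth-suppressing gene, at 25.01, 23.2 and 23.1 CPM and at 138, 134 and 143 CPM. Neither gene's groups overlapped, and the log2 fold changes were 2.88 (SE 0.028) and 2.54 (SE 0.033). The FOXO factor genes themselves split. FOXO3 rose from 170, 165 and 165 CPM to 605, 622 and 612 CPM, FOXO4 by 2.50 on the log2 scale and FOXO1 by 2.21 from a low level (1.73 CPM), while FOXO6 fell by 1.46. Other rises in the list included KLHL24, a ubiquitin ligase adaptor (32.9 ± 1.02 to 301.8 ± 1.03 CPM, SD, n = 3), the pyruvate dehydrogenase kinase gene PDK4 (log2 fold change 2.92), the mTORC1-restraining sestrin SESN3 (2.62) and the muscle atrophy ligase FBXO32 (2.42). The sestrin SESN2 showed no called difference (0.01, adjusted p = 0.815, edgeR quasi-likelihood), and the arrestin-domain gene ARRDC4 and the superoxide dismutase gene SOD2 fell by 0.78 and 0.45.

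The insulin receptor and PI3K-AKT-mTOR list moved in both directions, and its inhibitors and catalytic subunits each included rises and falls. Of 40 members 17 rose (42.5%, close to the background share) and 22 fell (55%), at a median log2 fold change of -0.15. Of the receptors, IGF1R stood at 27.4, 26.6 and 26.1 CPM in DMSO, against 129, 125 and 127 CPM in neratinib, and INSR at 14.3, 13.7 and 13.4 CPM and then at 54.8, 54.9 and 55.4 CPM. Both were several-fold higher in every neratinib library (log2 fold changes 2.25, SE 0.03, and 1.99, SE 0.039). IRAIN, an antisense RNA at the IGF1R locus, was also counted higher (4.30) from under 0.1 CPM, and its reads cannot be separated from those of IGF1R. Of the substrates, IRS2 is given above and IRS1 rose by 0.51.

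Of the PI3K genes, the catalytic subunit PIK3CA rose by 1.13 and PIK3CB fell by 0.31, and the regulatory subunits PIK3R1 and PIK3R2 fell by 1.41 and 0.91. The class II kinase PIK3C2B fell from 64.0, 62.9 and 60.2 CPM to 20.0, 20.4 and 20.5 CPM. PIK3IP1, which encodes a membrane inhibitor of PI3K, stood at 30.3, 30.8 and 32.4 CPM in DMSO, against 283, 273 and 284 CPM in neratinib (log2 fold change 3.17, SE 0.026, edgeR quasi-likelihood adjusted p = 1.57e-51). INPP5D, a phosphatase of the PI3K product, rose by 2.85 from 0.8 CPM, and its relative INPPL1 fell by 1.02. PHLPP2, a phosphatase that acts on AKT, fell from 56.3, 54.7 and 53.2 CPM to 25.4, 25.6 and 23.7 CPM. AKT1 fell from 500, 500 and 491 CPM to 250, 256 and 250 CPM with no overlap (log2 fold change -0.98), and AKT2 fell by 0.17. Among mTOR regulators, the restraining genes TSC1 and DEPTOR rose by 1.39 and 1.49 and the mTORC2 subunit RICTOR by 1.21, while MTOR fell by 0.44. The S6 kinase gene RPS6KB2 fell by 0.79.

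**Figure D2:**
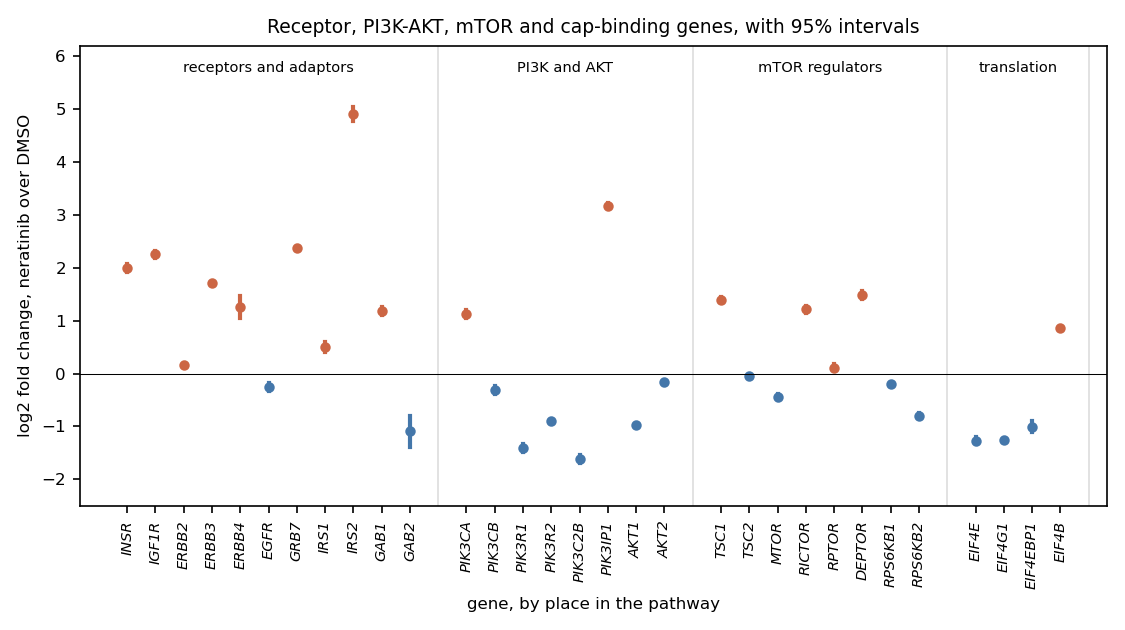
Points are log2 fold changes of neratinib over DMSO in parental cells and bars their 95% confidence intervals, in orange where the gene was called up and blue where called down, grouped by place in the pathway. Receptors and adaptors lie mostly above 0, with IRS2 at 4.91, while PIK3R1, PIK3C2B, AKT1, EIF4E and EIF4G1 lie near or below -1.

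ERBB3 and ERBB4 mRNAs rose more than 2-fold and ERBB2 mRNA rose little. Of 14 ErbB receptors and ligands, 9 rose (64.3%) and EGFR alone fell by test (median 0.46). ERBB2 was at 8234, 8182 and 8107 CPM in DMSO, against 9172, 9172 and 9062 CPM in neratinib, a log2 fold change of 0.16 (SE 0.017). The groups did not overlap, but the difference amounted to 1.12-fold. ERBB3, the kinase-poor partner of HER2, went from 309, 308 and 316 CPM to 1021, 1008 and 1024 CPM (1.71, SE 0.019), and ERBB4 rose by 1.26 to 6.88 CPM. EGFR fell by 0.25, from 38.6, 40.0 and 40.9 CPM to 33.6, 32.9 and 33.7 CPM. Of the ligand genes, EGF rose by 1.14 to 13.6 CPM, TGFA by 0.44 and AREG by 0.48, and EREG and HBEGF rose by 1.96 and 1.62 but stayed below 1 CPM. BTC, EPGN, NRG2 and NRG4 showed no called difference.

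Neighbours of ERBB2 in the amplified segment did not move as a block. Of 16 genes of the 17q12 list, 7 rose (43.8%) and 5 fell (31.2%), at a median log2 fold change of 0.01 that turned to -0.02 with DESeq2-style size factors. GRB7, an adaptor that binds HER2, lies downstream of ERBB2 (chr17:39737938-39747285, against chr17:39688094-39728658 for ERBB2, RefSeq GRCh38.p14). Its mRNA was at 412, 430 and 429 CPM in DMSO, against 2214, 2201 and 2163 CPM in neratinib, a 5.17-fold difference (log2 fold change 2.37, SE 0.021, edgeR quasi-likelihood adjusted p = 9.98e-51). MIEN1, which lies between them and overlaps the end of ERBB2 in the annotation, fell from 748, 745 and 725 CPM to 493, 498 and 488 CPM. GSDMB and ORMDL3 rose by 0.94 and 0.33, STARD3 and PGAP3 by 0.10 and 0.17, and CDK12, MED1 and PSMD3 fell by 0.20, 0.23 and 0.29.

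Other receptor tyrosine kinase genes fell more often than they rose, with 16 of 33 down (48.5%) and 11 up (33.3%) and a median of -0.40. Ephrin receptors accounted for changes in both directions. EPHA2 fell from 8.58, 8.35 and 9.21 CPM to 0.829, 1.21 and 1.27 CPM (log2 fold change -3.01, SE 0.12), and EPHB4 from a mean of 240.4 to 73.4 CPM (-1.71). EPHA7 rose from 2.69, 2.36 and 2.77 CPM to 21.2, 21.8 and 21.1 CPM (3.03, SE 0.073), and EPHA3 and EPHA5 rose by 1.69 and 3.58 to 6.07 and 1.39 CPM. RET, an oestrogen-responsive kinase gene in breast cancer, fell from 87.8, 85.6 and 83.7 CPM to 21.3, 23.1 and 23.3 CPM. MET and MERTK rose by 0.32 and 1.08, AXL rose but remained below 1 CPM, and FGFR3 and FGFR4 fell by 0.77 and 0.47.

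The lists of MAP kinase phosphatases and of receptor and RAS feedback inhibitors each held rises and falls. Among the phosphatases named here, DUSP6, DUSP4, DUSP7 and DUSP5 fell, while those acting mainly on JNK and p38 rose. Of 10 MAP kinase phosphatases, 6 fell and 4 rose (median -0.91). DUSP6, the cytoplasmic ERK phosphatase, was at 38.4, 35.8 and 35.5 CPM in DMSO, against 2.23, 2.11 and 1.95 CPM in neratinib, a 17.4-fold difference (log2 fold change -4.12, SE 0.07). The nuclear phosphatase DUSP4 fell from 367, 366 and 370 CPM to 57.6, 54.9 and 57.4 CPM, and DUSP7 and DUSP5 fell by 1.79 and 0.97. DUSP10, DUSP8 and DUSP16, which act mainly on JNK and p38, rose by 1.51, 1.02 and 0.61, and the stress-induced DUSP1 rose by 1.18.

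Among 29 receptor and RAS feedback inhibitors 12 fell (41.4%) and 11 rose (37.9%), and their median of -0.08 was positive with library totals alone. SPRY4 fell from 15.3, 13.8 and 14.9 CPM to 0.458, 0.332 and 0.467 CPM (log2 fold change -5.10, SE 0.12), SPRED1 from 13.1, 12.9 and 11.6 CPM to 2.18, 2.18 and 2.08 CPM, and SPRY1 by 1.11. The EGFR family inhibitor ERRFI1 and the RAS GTPase activator NF1 fell by 0.78 and 0.55. LRIG1, a further ErbB inhibitor, SOCS2 and the ubiquitin ligase CBLB rose by 0.83, 1.29 and 0.81. Within the RAS-RAF-MEK-ERK core, 17 of 29 fell (58.6%) and 8 rose (27.6%). HRAS fell by 1.54, NRAS by 0.58 and the ERK1 gene MAPK3 by 0.76, while BRAF, SOS1 and GAB1 rose by 0.88, 0.86 and 1.17.

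ETS factors divided evenly, 9 up and 9 down. The PEA3-group genes ETV4 and ETV5, which are switched on by ERK, fell from 14.7, 15.2 and 14.3 CPM to 3.25, 3.29 and 3.19 CPM and from 5.69, 5.80 and 6.28 CPM to 0.589, 0.513 and 0.857 CPM. ELK3, a serum response factor partner, fell by 2.56. The epithelial ETS genes ELF5 (45.1 to 123.6 CPM), EHF (268.8 to 435.3 CPM) and ELF3 rose by 1.46, 0.70 and 0.43, while SPDEF fell by 0.76. Of 48 phosphatase, feedback and ETS genes with a promoter window, 4 (8.33%) held CCGGAAGT or TGANTCA on either strand, against 7.93% and 4.8% of all genes tested for each motif alone.

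Immediate-early genes, which follow growth factor signals within minutes in many cells, did not fall together: 17 of 33 rose (51.5%) and 14 fell (42.4%). JUN was at 49.6, 50.5 and 50.5 CPM in DMSO, against 242, 245 and 244 CPM in neratinib (log2 fold change 2.28, SE 0.023), and JUND and FOSL2 rose by 1.92 and 1.71. ATF3, a stress-response factor, rose from 2.11, 1.77 and 1.90 CPM to 14.2, 14.9 and 15.7 CPM. FOS fell by 0.93 from 2.44 CPM and PHLDA1 by 2.07. EGR1 was at 9.21, 10.7 and 11.01 CPM and then at 9.49, 11.99 and 10.2 CPM, groups that overlapped (adjusted p = 0.791, edgeR quasi-likelihood). Of 14 Krüppel-like factor genes 9 rose (64.3%), with KLF6 and KLF7 up by 2.002 and 2.02, KLF4 by 1.02 and KLF9 by 0.78, and 5 fell, KLF16 by 1.45 and KLF12 by 1.42.

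**Figure D3:**
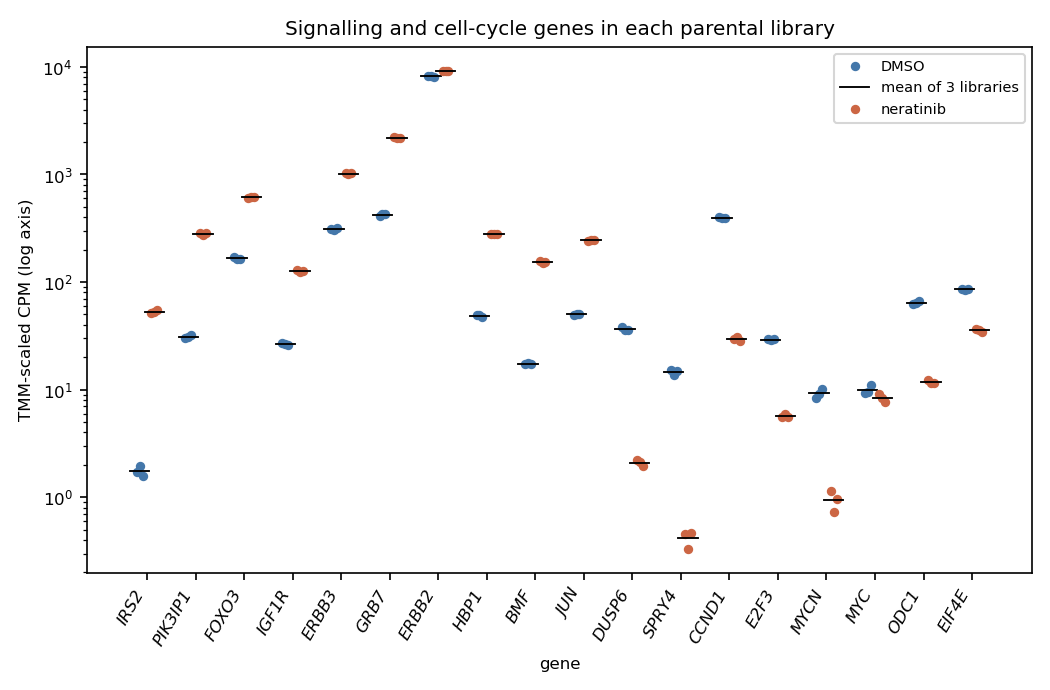
Each dot is 1 parental library (3 in DMSO, blue; 3 in neratinib, orange), on a log axis of TMM-scaled CPM, with a line at the group mean. The 18 genes keep their 3 replicates close together relative to the shift between groups, except MYC and ERBB2, whose groups lie close to each other.

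Within the MYC network, MYC itself fell by a small amount, and the MAX-binding repressors moved in both directions, most of those listed upward. MYC stood at 9.33, 9.61 and 11.1 CPM in DMSO, against 9.05, 8.40 and 7.74 CPM in neratinib. The groups did not overlap, but lay close (log2 fold change -0.25, SE 0.073, edgeR quasi-likelihood adjusted p = 0.00219). MYCN, its relative, fell from 8.43, 9.18 and 10.2 CPM to 1.13, 0.725 and 0.961 CPM (-3.26, SE 0.12), and MYCL rose by 0.90. Of the MAX partners that repress MYC targets, MXI1 rose from 12.98, 11.9 and 11.98 CPM to 61.4, 61.8 and 62.4 CPM (2.33), MXD3 by 1.40, MNT by 1.28, MXD1 by 1.09 and MXD4 by 0.65, while MGA fell by 0.30 from 62.4, 59.3 and 60.95 CPM to 48.9, 49.7 and 50.06 CPM. MLX, which pairs with several MXD proteins, fell by 0.79. MAX itself rose by 0.12. In all, 9 of 13 rose (69.2%), at a median log2 fold change of 0.74.

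G1 genes fell. Of 21 cyclins, kinases and E2F-RB genes, 18 fell (85.7%) and 2 rose (9.52%), at a median log2 fold change of -0.80. CCND1, the cyclin D1 gene, was at 402, 392 and 391 CPM in DMSO, against 29.5, 30.6 and 28.4 CPM in neratinib (log2 fold change -3.74, SE 0.025, edgeR quasi-likelihood adjusted p = 1.92e-54). E2F3, an S-phase activator, fell from 29.5, 28.9 and 29.4 CPM to 5.58, 5.92 and 5.53 CPM, CDC25A from 16.3, 15.6 and 15.9 CPM to 3.77, 3.38 and 3.84 CPM, and E2F1 by 1.78. The kinase genes CDK6 and CDK4 fell by 1.47 and 0.80 and the cyclin E genes CCNE1 and CCNE2 by 1.65 and 1.24. The 2 rises were RBL2, a repressor of E2F genes in quiescence (from 113, 119 and 118 CPM to 250.8, 252 and 254 CPM), and TFDP2, an E2F partner, up by 1.42.

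Genes that slow the cycle rose in 14 of 19 members (73.7%), at a median log2 fold change of 0.64. HBP1, a repressor of G1 genes, was at 49.2, 49.0 and 47.2 CPM and then at 281, 280 and 278 CPM (log2 fold change 2.53, SE 0.023), and the antiproliferative gene BTG1 rose from 46.4, 46.0 and 48.3 CPM to 174, 171 and 169 CPM. The CDK inhibitor genes moved less. CDKN1B, which encodes p27, was at 110, 109 and 116 CPM and then at 211, 208 and 208 CPM (0.91), and CDKN1A, CDKN1C, CDKN2B, CDKN2C and CDKN2D rose by 0.74, 0.95, 0.64, 0.52 and 0.43. FBXW7, the cyclin E and MYC degradation adaptor, fell from 45.8, 46.5 and 45.1 CPM to 15.03, 14.8 and 15.3 CPM.

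Genes that make building blocks fell in most cases. Of 40 nucleotide, one-carbon and polyamine synthesis genes, 32 fell (80%) and 4 rose (10%; 7 with library totals alone), at a median log2 fold change of -0.54. ODC1, the first enzyme of polyamine synthesis, was at 63.2, 64.2 and 66.3 CPM in DMSO, against 12.3, 11.5 and 11.5 CPM in neratinib (log2 fold change -2.45, SE 0.039). The next enzyme, spermidine synthase SRM, fell by 1.83, and SAT1, which begins polyamine breakdown, rose by 0.64. CTPS1, which makes CTP, fell from 37.1, 38.5 and 40.4 CPM to 8.64, 7.49 and 8.18 CPM, and the ribonucleotide reductase subunit RRM2 from 80.4, 82.1 and 81.4 CPM to 20.6, 20.2 and 18.8 CPM. Purine enzymes ATIC and GMPS fell by 1.08 and 1.13 and the pyrimidine enzyme CAD by 1.02. UMPS, DHODH, IMPDH2 and PSPH showed no called difference.

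Ribosome and tRNA production genes followed. Of 80 polymerase I, polymerase III and nucleolar genes, 60 fell (75%) and 11 rose (13.8%), at a median log2 fold change of -0.36 and 8 falls of at least 2-fold. UBTF, which opens ribosomal DNA to polymerase I, fell from 296, 282 and 285 CPM to 114, 118 and 112 CPM, the polymerase subunit POLR1A fell by 1.19 and the ribosome assembly gene RRS1 by 2.04. MAF1, the repressor of polymerase III, had the largest rise of the list, from 160, 168 and 167 CPM to 281, 279 and 280 CPM. Of 20 cytosolic tRNA synthetases 17 fell (85%), YARS1 by 1.72, MARS1 by 1.39 and VARS1 by 1.33, and QARS1 rose by 0.49.

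Of 48 translation factors 33 fell (68.8%) and 13 rose (27.1%). The cap-binding EIF4E was at 86.5, 84.2 and 87.1 CPM in DMSO, against 36.5, 35.7 and 34.5 CPM in neratinib (log2 fold change -1.27, SE 0.034), its scaffold EIF4G1 fell by 1.26 and its inhibitor EIF4EBP1 by 1.01. Their helicase cofactor EIF4B rose from 340, 341 and 336 CPM to 613, 630 and 614 CPM, and the elongation factor EEF2 rose by 0.53 from 1712, 1731 and 1731 CPM to 2491, 2488 and 2482 CPM. Small nucleolar RNA host genes, several of which share the 5′ terminal sequence of ribosomal protein mRNAs, were split 11 up and 10 down: GAS5, SNHG7 and SNHG8 rose by 0.62, 0.87 and 0.69, and SNHG15 and SNHG17 fell by 1.59 and 1.64.

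Transporters of amino acids and sugars moved in both directions, with 17 of 33 up (51.5%) and 13 down (39.4%). The arginine importer SLC7A1 fell from 117, 114 and 111 CPM to 42.5, 43.5 and 42.3 CPM, and the large neutral amino acid transporter SLC7A5 and the glucose transporter SLC2A1 fell by 0.86 and 0.68. SLC2A13, SLC43A2 and SLC38A2 rose by 1.59, 1.09 and 0.78. Cholesterol genes were mixed, with 16 of 34 up (47.1%) and 15 down (44.1%). The exporter ABCA1 rose by 3.90 from 0.329 to 4.98 CPM.

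**Figure D4:**
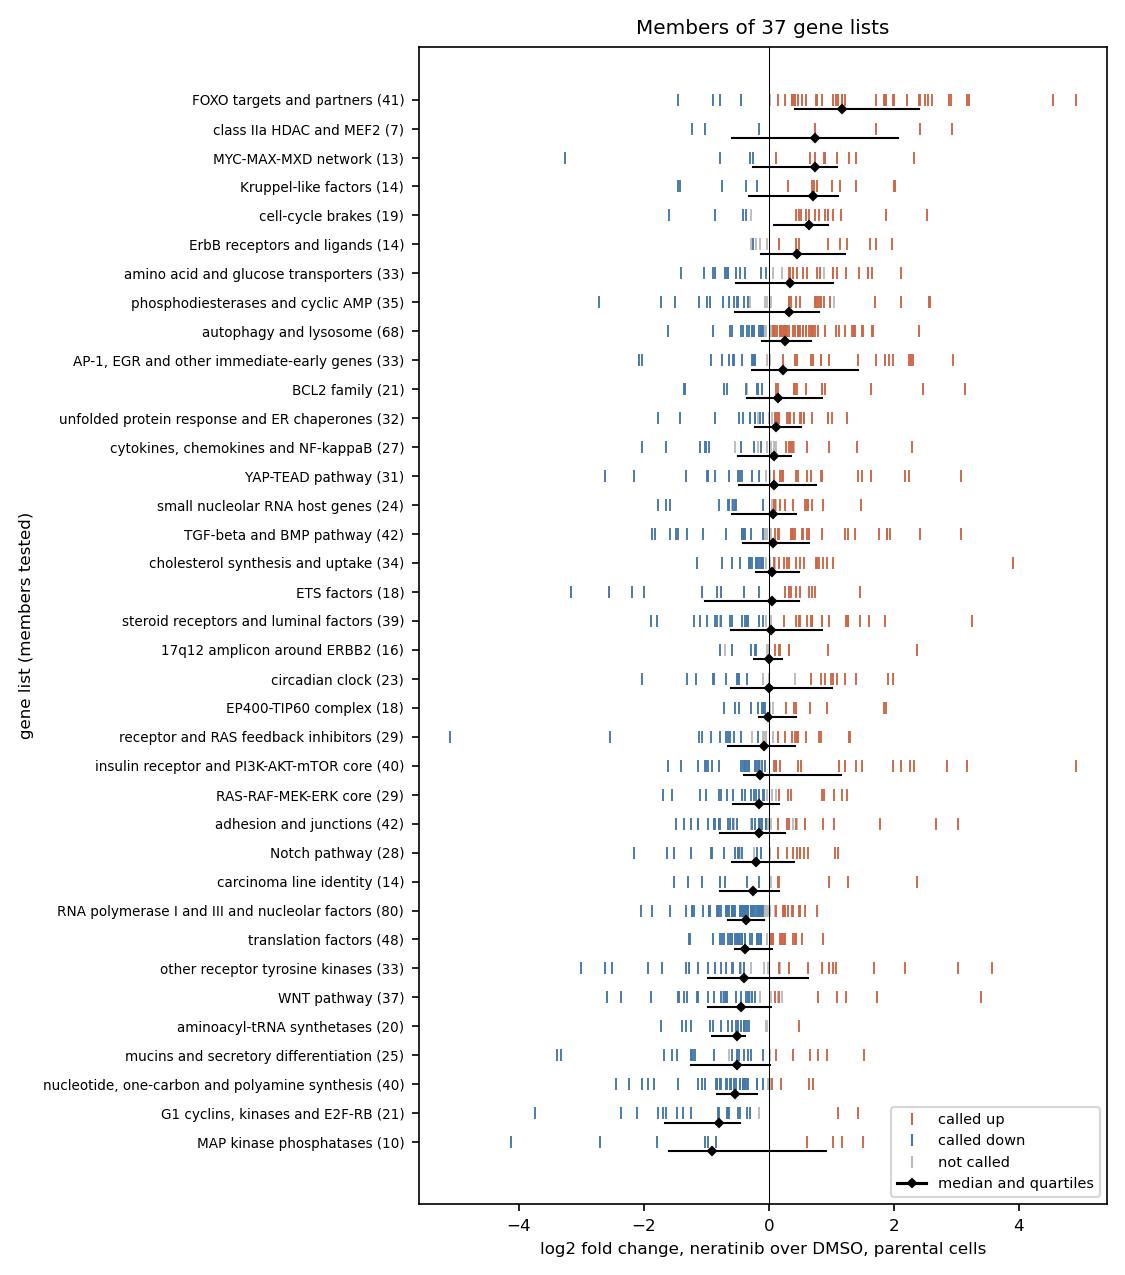
Each tick is 1 member's log2 fold change (neratinib over DMSO, parental cells), orange where called up, blue where called down and grey where not called; diamonds and lines give each list's median and quartiles, with the number of members tested in parentheses. FOXO targets and partners lie highest by median (1.17), and MAP kinase phosphatases and G1 genes lowest (-0.91 and -0.80), with members of most lists on both sides of 0.

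Autophagy and lysosome genes rose more often than the background, in 44 of 68 members (64.7%) with 18 down (26.5%) and a median of 0.25. GABARAPL1, an autophagosome membrane protein gene, was at 13.1, 12.6 and 11.8 CPM in DMSO, against 65.0, 67.4 and 66.9 CPM in neratinib (log2 fold change 2.41, SE 0.039). RB1CC1, a scaffold of the initiating kinase complex, rose from 51.0, 49.6 and 49.5 CPM to 157, 159 and 156 CPM, and MAP1LC3B, ATG14, WIPI2 and the protease CTSL rose by 1.37, 1.51, 1.22 and 1.67. TFEB, a regulator of lysosomal genes, fell by 1.61 from 1.18 CPM. Of 32 unfolded protein response genes 18 rose (56.2%) and 11 fell (34.4%): PPP1R15A, which reverses the translation block, rose by 1.26 and HERPUD1 by 0.94, while XBP1 fell from 1105, 1102 and 1128 CPM to 623, 602 and 619 CPM and TRIB3 by 1.42.

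Within the BCL2 family, 12 of 21 rose (57.1%) and 8 fell (38.1%). The largest change among those at 1 CPM or more was of BMF, a BH3-only death gene, at 17.2, 17.8 and 17.3 CPM in DMSO and 156, 151 and 152 CPM in neratinib (log2 fold change 3.13, SE 0.03). BBC3 (PUMA) rose from 15.04, 14.8 and 13.99 CPM to 44.8, 45.2 and 46.3 CPM, PMAIP1 by 0.90 and BCL2L11 (BIM) by 0.60. The survival genes BCL2 and MCL1 rose by 0.84 and 0.45, and BCL2L1 fell by 0.11. BID, BOK and BAK1 fell by 1.36, 1.34 and 0.71.

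The list of steroid receptors and luminal factors moved in both directions. ESR1, the oestrogen receptor gene, was at 30.8, 30.9 and 31.0 CPM in DMSO, against 60.3, 60.3 and 60.4 CPM in neratinib (log2 fold change 0.96, SE 0.031), and PGR at 80.5, 79.5 and 79.2 CPM and then at 194, 196 and 188 CPM (1.27). ESRRG, an orphan receptor, rose from 1.79, 2.17 and 1.64 CPM to 17.4, 17.4 and 18.5 CPM, the glucocorticoid receptor gene NR3C1 by 1.24 and the coactivator genes NCOA2 and NCOA3 by 0.85 and 0.61. The vitamin D receptor gene VDR fell from 144, 142 and 142 CPM to 39.5, 36.5 and 39.2 CPM. The lineage factors FOXA1, GATA3 and GRHL2 fell by 0.34, 0.16 and 1.10. In all, 19 of 39 rose (48.7%) and 17 fell (43.6%).

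Secretory and mucin genes fell in 17 of 25 members (68%) and rose in 6 (24%). MUC5B fell from 98.3, 90.02 and 90.04 CPM to 28.4, 30.9 and 27.8 CPM and the gastric mucin gene MUC5AC by 3.39 from 4.84 CPM. The carbonic anhydrase gene CA12, the disulfide isomerase relative AGR2 and the cell surface gene CEACAM6 fell by 1.55, 1.22 and 1.24. MUC1, a mucin of luminal cells, rose by 0.11. Of 42 adhesion and junction genes 24 fell (57.1%) and 10 rose (23.8%). The desmosomal plakophilins PKP2 and PKP3 fell by 1.48 and 1.36, the integrin ITGB6 by 1.14 and EPCAM by 0.78, CDH1 rose by 0.14, and the integrin ITGB8 rose from 4.03, 4.32 and 4.88 CPM to 36.5, 35.2 and 36.5 CPM. Vimentin, VIM, and TWIST1, which are markers of mesenchymal cells, rose by 1.04 and 1.77, while ZEB1 and FN1 showed no called difference.

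WNT pathway genes fell in 23 of 37 members (62.2%) and rose in 7 (18.9%), at a median log2 fold change of -0.45. The ligand genes WNT5A, WNT7B and WNT9A fell by 2.37, 1.88 and 1.30, the receptor gene LRP5 by 0.88 and the repressor TCF7L1 from 28.7, 28.7 and 26.4 CPM to 4.69, 5.23 and 4.03 CPM. DKK1, a secreted WNT inhibitor, moved the other way and was at 29.5, 29.7 and 32.6 CPM in DMSO, against 326, 315 and 324 CPM in neratinib. Its 10.5-fold difference (log2 fold change 3.39, SE 0.027, edgeR quasi-likelihood adjusted p = 6.98e-52) had the largest ratio to its standard error of any rise named. The feedback targets AXIN2 and NKD1 showed no called difference.

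TGF-beta and BMP genes rose in 21 of 42 members (50%) and fell in 15 (35.7%). The ligand BMP7 fell from 604, 600 and 584 CPM to 163, 168 and 160 CPM (log2 fold change -1.87, SE 0.021), TGFB3 by 1.30 and the receptor genes TGFBR1 and BMPR1B by 1.05 and 1.48. The BMP-responsive inhibitors of differentiation ID3, ID1 and ID4 rose by 1.88, 1.22 and 1.89. Of the YAP-TEAD list 16 of 31 rose (51.6%) and 12 fell (38.7%): TEAD4 fell from 28.7, 30.7 and 29.3 CPM to 7.39, 6.31 and 5.95 CPM, and AMOTL2 and PTPN14, which hold YAP in the cytoplasm, rose by 1.497 and 1.63. In the Notch list 13 of 28 fell (46.4%) and 10 rose (35.7%), with NOTCH3 down by 0.90, HES1 by 0.72 and HES4 by 1.24, and RBPJ up by 0.63.

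Several smaller families were split as well. Of 7 class IIa deacetylase and MEF2 genes, 4 rose and 3 fell: HDAC5 went from 15.02, 14.1 and 15.7 CPM to 114, 116 and 112 CPM (log2 fold change 2.93, SE 0.036) and HDAC9 rose by 1.72, while HDAC7 and HDAC4 fell by 1.24 and 1.01. Of 23 clock genes 10 rose and 10 fell (43.5% each), and their median changed sign with the scaling. PER1 and DBP rose by 1.99 and 1.91, and BHLHE40 and CLOCK fell by 2.04 and 1.17. Phosphodiesterase and cyclic AMP genes rose in 15 of 35 members (42.9%) and fell in 13 (37.1%), with the CREB relative CREB5 up from 10.2, 10.2 and 9.66 CPM to 58.4, 62.1 and 57.5 CPM and PDE4B down by 2.72 from 3.78 CPM. In the cytokine and NF-kappaB list 8 of 27 rose (29.6%) and 9 fell (33.3%), with the death ligand TNFSF10 (TRAIL) up by 2.29 and RELB and NFKB1 down by 1.65 and 0.96. Zinc-finger genes with ZNF symbols leaned up at any size, with 271 of 513 called up and 141 down (median 0.205). At 2-fold or more, 49 were up and 10 down. They made up 2.32% of the 2-fold rises and 0.793% of the falls, below their 3.17% of all genes tested.

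BRD8, the gene named in the KO labels, belongs to the EP400-TIP60 chromatin complex and was itself responsive. In parental cells it was at 64.9, 63.5 and 64.0 CPM in DMSO, against 232, 242 and 233 CPM in neratinib (log2 fold change 1.88, SE 0.024). In the KO-labelled libraries it was at 67.4, 66.1 and 68.8 CPM and then at 153, 158 and 157 CPM, so its mRNA was not lower in the DMSO libraries labelled KO. An mRNA level does not check an edit whose position is not given here. Of the 18 complex genes 7 rose (38.9%) and 9 fell (50%; 5 with library totals alone, which turned the median of -0.02 positive). MBTD1 rose from 40.7, 40.7 and 40.1 CPM to 145, 147 and 146 CPM and EPC2 by 0.94, while TRRAP, RUVBL1 and ACTL6A fell by 0.72, 0.54 and 0.47.

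Besides those in the lists, the largest rises among genes reaching 10 CPM were of KLHL38, whose level went from 1.11, 0.913 and 0.950 CPM to 34.3, 33.4 and 34.7 CPM (log2 fold change 5.10, SE 0.076), IQCN (4.36), TCP11L2 (4.34), the potassium channel gene KCNJ13 (4.02), the glutamate transporter gene SLC1A2 (3.84), GRAMD1C (3.68), OSER1-DT (3.59) and RADIL (3.48). UGT2B15, a steroid glucuronidation gene, rose by 4.30, with the caution that near-identical UGT2B genes share reads. The largest falls were of DOK7 (-3.65), the calmodulin-like CALML5 (-3.53), CORO1A (-3.09), GPRC5B (-2.89), FGD5 (-2.88), the fatty acid receptor FFAR2 (-2.84) and LRRC26 (-2.74). The natriuretic peptide clearance receptor gene NPR3 fell from 183, 182 and 187 CPM to 16.5, 15.7 and 17.8 CPM, and the matrix protein gene TNC from 178, 178 and 173 CPM to 21.7, 20.4 and 22.1 CPM. P2RY2, a nucleotide receptor gene, fell from 259, 254 and 251 CPM to 45.6, 44.9 and 42.2 CPM.

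By difference in CPM, a measure that is not corrected for transcript length and favours abundant RNAs, GRB7 and ERBB2, given above, were among the leading rises. EEF1A1, RPL23 and the IGF-binding protein gene IGFBP5 rose by 0.21, 0.28 and 0.57. The falls were led by the cytoskeletal actin gene ACTB, from 7993, 7775 and 7489 CPM to 2808, 2918 and 2801 CPM (-1.45, SE 0.022), and by ACTG1 (-1.30). The constitutive chaperone HSPA8 fell from 3728, 3703 and 3670 CPM to 1417, 1392 and 1424 CPM, the keratins KRT8 and KRT19 by 1.29 and 1.51, the tubulin gene TUBA1B by 1.18, the AAA ATPase VCP by 0.95 and the glycolytic PKM by 0.86. Reads of actins, keratins, tubulins, EEF1A1 and RPL23 can come from near-identical copies, so their values are uncertain to that extent.

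The same treatment in KO-labelled cells called 6298 genes up (38.9%) and 6221 down (38.4%) at any size, and 1526 up (9.42%) and 859 down (5.30%) at least 2-fold. Of the 2111 genes up at least 2-fold in parental cells, 1834 (86.9%) were called up in KO-labelled cells, 1222 (57.9%) at least 2-fold, and 7 were called down. Of the 1261 down, 1121 (88.9%) were called down, 639 (50.7%) at least 2-fold, and 4 were called up. The difference of the responses, tested as an interaction, was called for 7469 genes (46.1%) at any size and 352 (2.17%) beyond 1.5-fold by glmTreat. Of the 2-fold rises, 117 differed beyond 1.5-fold with a smaller response in KO-labelled cells and 5 with a larger one. Of the 2-fold falls, 110 were smaller and 6 larger. These counts follow the sign of the difference, so a response that turned to the opposite sign counts as smaller. The parental libraries that chose these genes also enter the interaction, so these counts are a description.

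DUSP6 differed most among the ERK phosphatases, with a log2 fold change of -4.12 in the parental line against -1.17 in KO-labelled cells (difference 2.95, SE 0.098, glmTreat adjusted p = 1.42e-23). SPRY4, ETV5, ETV4 and DUSP4 also fell less in KO-labelled cells, by differences of 2.07, 1.47, 1.33 and 0.98. IRS2 rose by 4.91 and 5.002, a difference of 0.09 that was not called (adjusted p = 0.664, edgeR quasi-likelihood), and FBXO32 rose by 2.42 and 2.44 (adjusted p = 0.656, edgeR quasi-likelihood). CCND1 fell by 3.74 and 3.21 and ERBB3 rose by 1.71 and 1.42. Their differences of 0.53 and -0.29 were called at any size (adjusted p = 1.95e-14 and 6.89e-13, edgeR quasi-likelihood), but not beyond 1.5-fold.

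**Figure D5:**
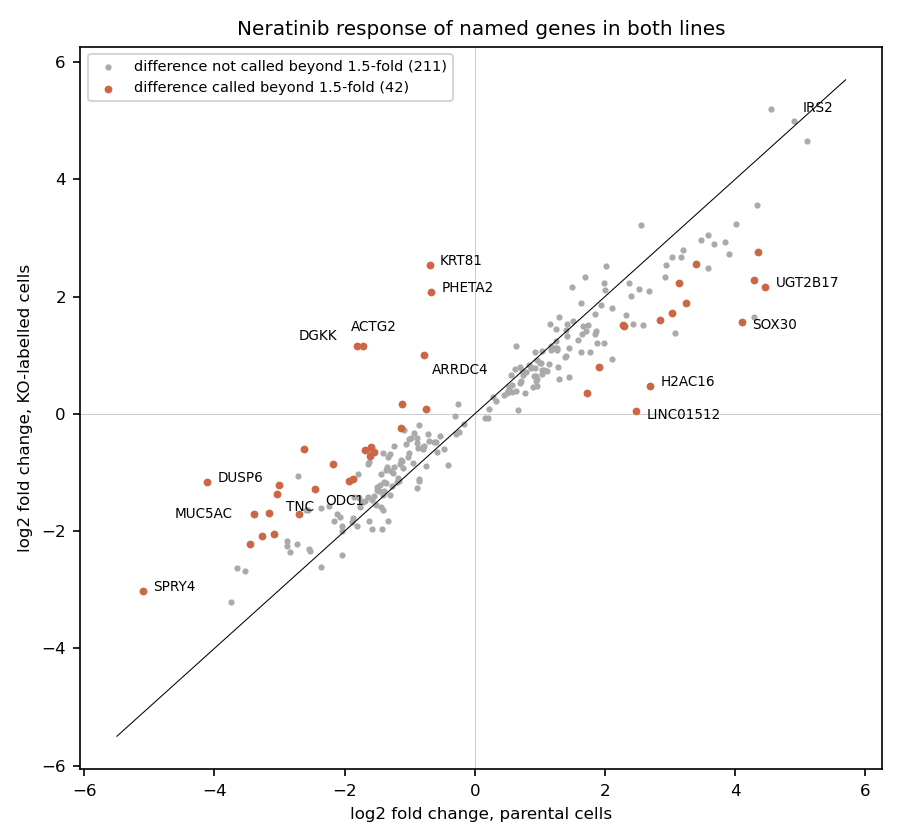
Each point is 1 of the 253 named genes, with its log2 fold change (neratinib over DMSO) in parental cells on the horizontal axis and in KO-labelled cells on the vertical axis; the line marks equal responses. The 42 orange genes differed beyond 1.5-fold, among them DUSP6, SPRY4 and KRT81, while IRS2 lies near the line.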

How the data were processed

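RNA was measured in 12 libraries of BT474 cells (4 groups of 3) made with the TruSeq RNA v2 kit and sequenced as single reads, per the labels' protocols. The authors deposited raw counts of reads for each gene. FastQC 0.11.7, STAR 2.7.9, edgeR 3.40.2 and the GRCh38 genome are named in the submitters' processing notes. Neither the counting program, the annotation nor the strand setting is named in the sources used here. Of 28395 lines, 581 without a gene symbol (0.0877% to 0.124% of counts) were left out. Genes were filtered with filterByExpr and scaled by TMM, and a quasi-likelihood model with 4 group means was fitted to all 12 libraries (8 residual degrees of freedom) with edgeR 4.0.16 in R 4.3.3. P-values were adjusted by Benjamini-Hochberg over 16208 genes, of which 15970 matched RefSeq (GRCh38.p14) by symbol for positions, gene types and promoter windows. The procedure was tested on simulated data in which few genes changed, equally up and down, so that test does not bear on scaling under a broad response. Replicates differed by more than sampling noise (chi-square per degree of freedom 1.37 to 3.50), so none were merged.

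Named genes were anchors of the pathway (ERBB2, ERBB3, EGFR, IRS2, DUSP6, SPRY4, ETV4, ETV5, CCND1, MYC, ESR1, PGR, CDKN1B and BRD8), the 12 largest rises and falls reaching 10 CPM with no overlap between groups, and the 8 largest rises and falls by CPM difference, mitochondrially encoded genes left out. To these came up to 3 rises and 3 falls reaching 1 CPM in each of 37 lists, further list members where a family's roles needed them, the 5 largest interactions of each sign, and the 5 rises and 5 falls with the largest ratio to their standard error. Y-linked genes were left out. Some genes that these rules name are not reported here. The members, lists and rules were chosen with earlier results of these data known. Alternatives were other scalings and filters, DESeq2 1.42.0, the parental libraries alone, a 1.5-fold threshold (glmTreat), a replicate block and leaving out each library.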

Additional observations from a re-analysis of the deposited data

Results flagged for a closer look

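Of the 253 named genes, 42 had a neratinib response in KO-labelled cells that differed from the parental one beyond 1.5-fold. The test was the interaction by edgeR's glmTreat, adjusted p below 0.05. In 39 of the 42 the KO-labelled response was the smaller one in absolute size, whatever its sign. Over all genes tested, 352 of 16208 (2.17%) differed beyond 1.5-fold. The named genes include the largest interactions and the largest parental changes, so the counts of 42 and 39 are shaped by how these genes were chosen. Values are log2 differences, KO-labelled minus parental, so a positive value for a gene that fell in parental cells is a smaller fall, except for the 7 genes below that turned to the opposite sign. No explanation was tested.

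Among ERK output and growth receptor genes the differences were 2.95 for DUSP6, 2.07 for SPRY4, 1.47 for ETV5, 1.33 for ETV4, 0.98 for DUSP4, 1.79 for EPHA2, 2.03 for FLT4, 0.78 for RET and -1.30 for EPHA7. Transcription factor genes gave -0.75 for JUN, 1.18 for MYCN, -1.36 for ESRRG, -1.10 for DBP, -2.54 for SOX30 and -1.37 for the deacetylase HDAC9. Secreted, matrix and adhesion genes gave 1.66 for TNC, 0.91 for ITGB6, 1.68 for MUC5AC, 1.06 for MUC5B, 0.89 for CA12, 0.76 for BMP7, -0.84 for DKK1 and -0.80 for TNFSF10. Metabolic and signalling genes gave 1.18 for ODC1, -1.24 for INPP5D, 1.25 for NPR3, -2.02 for UGT2B15 and -2.30 for UGT2B17, the last 2 with shared reads. The remaining differences were 0.89 for FBXW7, -0.91 for BMF, 1.04 for CORO1A, -1.59 for IQCN, 1.02 for SNHG15 and -2.42 for LINC01512. A difference does not give the level reached, and some DMSO levels differed between the lines. From DMSO to neratinib, INPP5D went from 0.80 to 5.83 CPM in parental cells, against 7.61 to 23.4 CPM in KO-labelled cells. JUN went from 50.2 to 243.5 CPM, against 126.9 to 365.6 CPM, and TNC from 176.1 to 21.4 CPM, against 40.6 to 15.6 CPM. In DMSO, ETV5 was at 5.92 and 5.89 CPM. SOX30, UGT2B17 and LINC01512 were low in parental DMSO, at 0.069, 0.297 and 0.347 CPM.

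In 7 of the 42 the fitted response was negative in parental and positive in KO-labelled cells. DGKK went from -1.81 to 1.15 (difference 2.97), PHETA2 from -0.66 to 2.08 (2.75), PDE9A from -1.11 to 0.17 (1.28) and KLF10 from -0.75 to 0.08 (0.83). The first 3 were at low levels: parental DMSO and neratinib means were 0.76 and 0.225 CPM for DGKK and 1.52 and 0.71 CPM for PDE9A. PHETA2 was at 0.1965 CPM in KO-labelled DMSO. The KO-labelled responses of PDE9A and KLF10 were small (KLF10 adjusted p = 0.0488, edgeR quasi-likelihood). ARRDC4, an arrestin-domain gene regulated with glucose, went from -0.78 in parental to 1.01 in KO-labelled cells (difference 1.79). KRT81 went from -0.69 to 2.53 (3.23) and ACTG2 from -1.72 to 1.16 (2.88). Both share reads with near-identical genes, and KRT81 stood at or below 1 CPM in every parental library. The parental means of ACTG2 were 0.935 CPM in DMSO and 0.28 CPM in neratinib. H2AC16 kept its sign (-2.21). This histone gene with near copies was at 0.132 CPM in parental DMSO, and its parental log2 fold change of 2.69 became 3.67 without parental DMSO replicate 2.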

How the results depend on the processing

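No named gene changed direction under the alternatives it was tested in; the 5 CPM limit left some untested. List medians near 0 changed sign with the scaling: 17q12 from 0.006 to -0.017 with DESeq2-style factors, and with library totals feedback inhibitors from -0.077 to 0.003, EP400-TIP60 from -0.02 to 0.059 and clock genes from -0.003 to 0.076. Limiting the test to genes with a mean of at least 5 CPM left 798 rises and 659 falls of at least 2-fold, since fewer genes were tested. Requiring more than 1.5-fold (glmTreat) left 2800 genes up, 2273 down and 352 interactions, a stricter threshold by construction. Leaving out each library gave 2090 to 2187 rises and 1272 to 1324 falls of at least 2-fold, 6430 to 6827 and 6201 to 6440 at any size, and 6977 to 7281 interactions. Library totals alone moved the median log2 fold change of all genes from 0.039 to 0.118 and the share of rises among 2-fold calls from 62.6% to 68.3%. MEF2A and KRT81 lost their parental calls in some settings: MEF2A with library totals (adjusted p = 0.122, edgeR) and at 5 CPM (0.0522), KRT81 with library totals, DESeq2, or without parental DMSO replicate 3 or parental neratinib replicates 1 or 3 (0.0507 to 0.154). The 5 CPM limit, with fewer members tested, left 5 rises among ErbB genes and 5 among other receptor kinases, and falls of 4 ETS, 7 Notch, 15 WNT, 5 EP400-TIP60, 5 small nucleolar RNA host and 11 mucin genes.

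No shared deviation by replicate number was seen: same-numbered parental libraries had correlations of deviations of -0.148, -0.0574 and 0.0998. Differently numbered ones ranged from -0.182 to 0.235. Such correlations cannot show how the samples were handled. A replicate block gave 2109 rises and 1257 falls of at least 2-fold, 6758 and 6273 at any size, and 7349 interactions.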
